A study of Solanum lycopersicum with 14 samples.

Results

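The oldest fruits sampled of each genotype were set side by side: the pericarp, which is the flesh of the fruit wall, of the yellow-fruited tomato n3122 at 60 DPA and of the red-fruited tomato M82 at 54 DPA. These groups hold 4 of the 14 RNA sequencing libraries of the study, 2 in each, and each is the oldest labelled age of its genotype. M82 is the wild-type cultivar, n3122 is a mutant in the M82 background whose mutated gene the labels do not name, and all plants grew in a greenhouse. The labels state fruit age in DPA, which stands for days post anthesis. The authors did not compare these groups with each other. Their levels came from 2 deposited tables scaled separately, one of n3122 and M82 at 54 DPA and one of n3122 at 60 DPA and M82 at 47 DPA, joined by gene. The authors gave 1 level per gene for both libraries of a group, so no spread between replicates is known, no level carries an error, and all differences between the oldest fruits are descriptions without a test. The ages also differ, so genotype and age cannot be told apart in them. Whether both libraries of a group stem from different plants is not in the labels.

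Tomato is a climacteric fruit, in which a burst of ethylene drives ripening. Ethylene is made by ACC synthases (ACS) and ACC oxidases (ACO), bound by receptors of the ETR family and relayed through the kinase CTR1 and the membrane protein EIN2 to EIN3-like (EIL) transcription factors. Together with regulators such as RIN, NOR and CNR, this signal turns on genes that make carotenoids, soften the cell wall and form aroma, while chloroplasts lose their chlorophyll and become chromoplasts. Red colour comes from lycopene, the product of the carotenoid pathway that opens with phytoene synthase.

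Levels are in FPKM, a fragment number divided by transcript length and by the size of the library. The difference used throughout is log2((n3122 + 1) / (M82 + 1)), minus its median of -0.11 over the 16623 genes that reached 1 FPKM in both groups. At the edge of that minimum, Solyc01g008400 was included with 1.0013 FPKM in n3122 beside 2.59 in M82, and Solyc06g063040 was left out with 0.9997 beside 1.47. A gene was counted as higher or lower in n3122 where the centred difference was at least 1 or at most -1, which is 2-fold on this scale. A level as a percentage of M82 is the ratio of both FPKM values without the added 1, scaled by its own median.

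Among the 18416 genes with at least 1 FPKM in either group, 2106 (11.4%) were higher and 1219 (6.62%) lower in the oldest yellow fruit, 18.1% in all, and 15091 lay within 2-fold. Over the genes that reached 1 FPKM in both groups, the lower quartile of the differences was -0.30 and the upper quartile 0.38. Differences of 5 or more were found for 20 genes in the higher direction and 33 in the lower. The 20 include 10 genes listed at 0 in M82, and the 33 include 9 listed at 0 in n3122. Such listings can be failed estimates. Genes with a higher level outnumbered those with a lower one over all genes, but not among the 2050 genes with at least 100 FPKM in either group, where 210 were higher and 273 lower. The authors' own comparisons that hold these groups are called here the same-age comparison (both genotypes at 54 DPA) and the younger-red comparison (the oldest yellow fruit, 60 DPA, and red fruit of 47 DPA). By the same rule, 15.4% of 18836 genes were higher and 6.69% lower in the same-age comparison, and 8.92% of 18278 were higher and 6.78% lower in the younger-red comparison. These comparisons share groups with the oldest fruits and are no independent evidence. M82 at 47 DPA stands in 2 tables with a ratio of 0.96 between them (SD 0.00118 over 17236 genes), which shows that the tables were scaled separately. The centring sets the median of the joined tables to 0 and leaves no other check of their scale.

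Levels of very abundant genes were uncertain. A gene listed at 0 can be a failed estimate: of the measured genes, 144 were listed at 0 in M82 and 126 in n3122, and 10 of the former and 9 of the latter had 50 FPKM or more in the other group. In n3122, 18 of the 1531 genes with at least 100 FPKM had exactly the level of another gene, among them Solyc02g068870 and Solyc12g049470, both at 123085 FPKM, of which M82 had 366822 and 0. These 18 genes made up 19.4% of the FPKM total of n3122. In M82, 26 of 1811 genes shared a level in this way and made up 0.23% of its total. Solyc02g068870 alone, however, made up 25.19% of the M82 total and 9.03% of the n3122 total. Sequencing depth is unknown, since the files hold no counts.

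**Figure D1:**
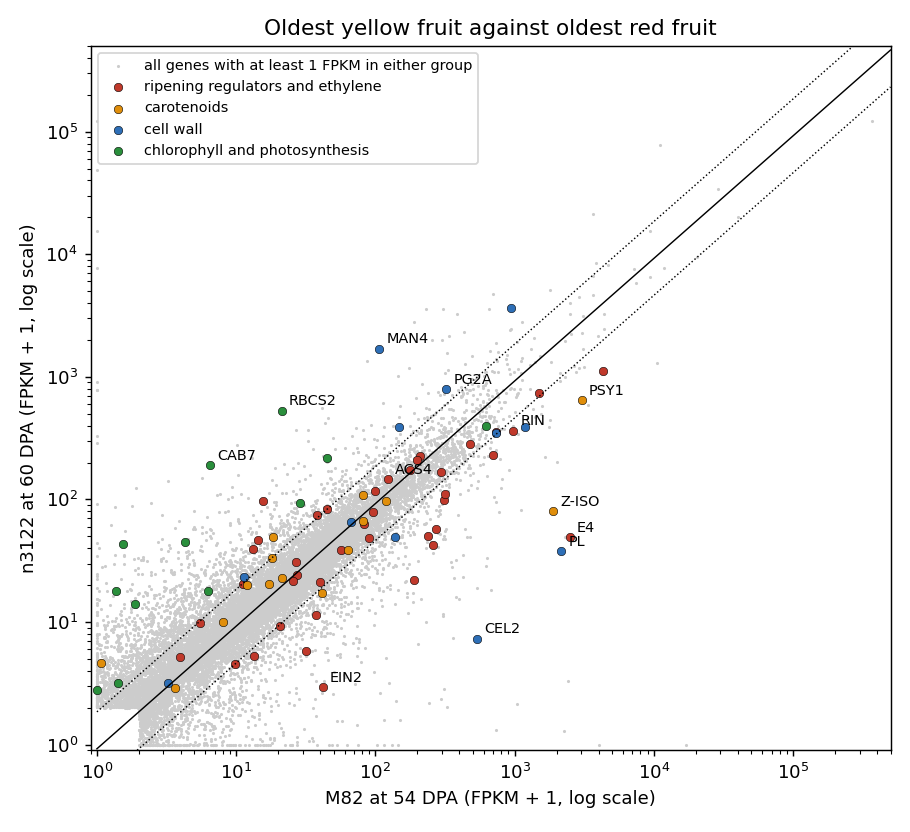
Levels of 18416 genes in n3122 at 60 DPA (vertical) against M82 at 54 DPA (horizontal), as FPKM + 1 on log axes, with 1 point per gene and coloured points for ripening and ethylene, carotenoid, cell wall and photosynthesis genes. The solid line is the median ratio and the dotted lines are 2-fold from it; EIN2, E4, PL, CEL2 and Z-ISO lie far below, and MAN4, RBCS2 and CAB7 far above.

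The genes were grouped into 13 lists of pathways, 142 genes whose identity passed a check by chromosome and place, of which 123 had at least 1 FPKM in either group. Over all lists 33 were higher and 30 lower in n3122, beside 11.4% and 6.62% of all measured genes. A gene measured through 1 group only tends to a difference away from 0, although LIN5 (0.50) and GAME1 (0.87) stayed under the threshold. Of the 110 with at least 1 FPKM in both groups 23 were higher and 29 lower. The 19 listed genes under 1 FPKM in both groups entered no count of higher and lower genes between the oldest fruits. Some of them, such as POR3, do enter counts for the authors' comparisons. Among the 19 were ACS3, ACS8, PE3, CCD7, SHN3, DFR, PAL3, LIN7, DXS2, GGPS1, CAB1, CAB3C, GLK1, POR3, GAME2, GAME6, GAME9 and GAME17. By median difference the lists ran from -0.87 for aroma and sugar metabolism to 2.70 for chlorophyll metabolism and photosynthesis, against 0.01 over all 18416 genes.

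**Figure D2:**
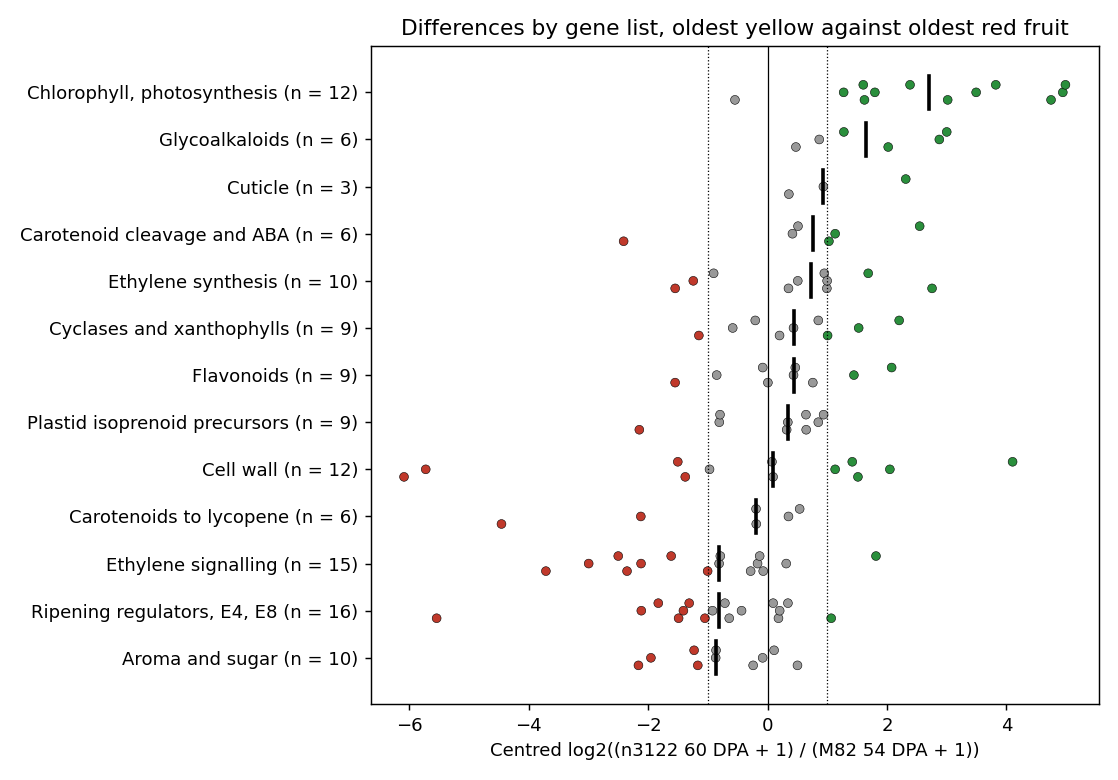
Centred log2 difference between n3122 at 60 DPA and M82 at 54 DPA for each measured gene (points) of 13 lists, ordered by the list's median (black bar). Green points are higher and red points lower by at least 1, beyond the dotted lines; photosynthesis genes lie furthest to the right, and the cell wall list reaches from -6.09 to 4.11.

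EIN2 (Solyc09g007870), the membrane protein through which the ethylene signal passes, stood at 40.8 FPKM in M82 and 1.95 in n3122, a centred difference of -3.71. This is 5.21% of the red fruit's level, and n3122 at 54 DPA was also low at 2.91. In the authors' deposited tables it was called with a q-value of 0.000377 in the same-age comparison and 0.000943 in the younger-red comparison. Its neighbours did not share the low level. Among the 10 genes with the nearest identifiers on each side, 11 had at least 1 FPKM in either group. None of the 11 was lower by 1 or more, and 2 were higher. The genes directly beside EIN2 had 58.8 FPKM in M82 and 75.8 in n3122 (Solyc09g007860) and 23.1 and 35.5 (Solyc09g007880). The lowest of the neighbours was Solyc09g007900, with 38.3 and 18.3 FPKM and a difference of -0.91.

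**Figure D3:**
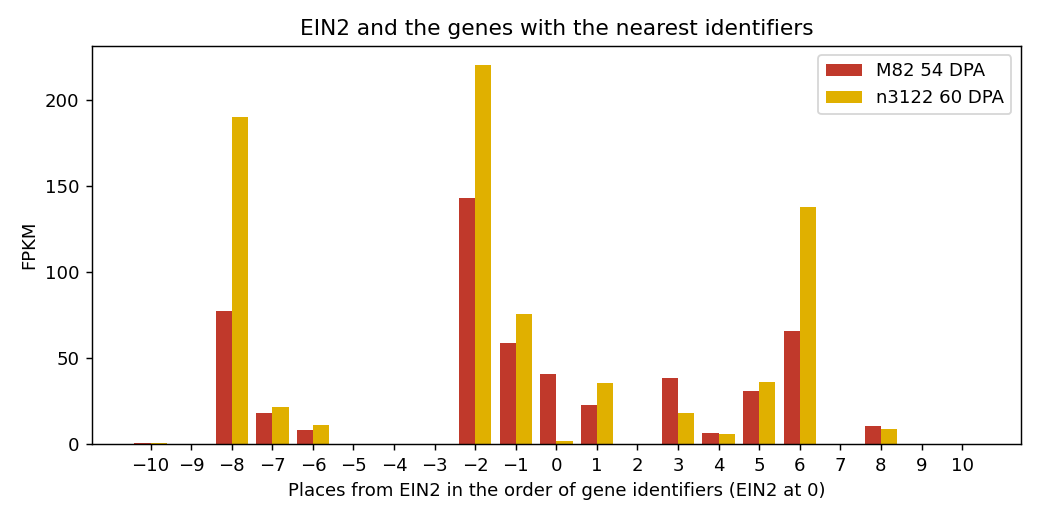
FPKM in M82 at 54 DPA (red) and n3122 at 60 DPA (yellow) of EIN2, at 0, and of the 10 genes with the nearest identifiers on each side, in the order of identifiers and without replicate error. EIN2 stands at 40.8 FPKM in M82 and 1.95 in n3122, while the genes directly beside it have more in n3122.

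Several ethylene receptors and EBF1 were lower in the oldest yellow fruit as well. The perception and signalling list had 15 measured genes, 7 of them lower and 1 higher, with a median of -0.81. The shares over all measured genes were 6.62% lower and 11.4% higher. NR, the receptor of ripening fruit, had 257 FPKM in M82 and 41.2 in n3122, which is 17.5%. ETR4, another receptor, was at 49.4 FPKM against 236 in M82, and ETR6 at 4.77 against 30.9. The receptor genes ETR7 (-1.61) and ETR5 (-1.003) were also below the threshold, the latter only just. ETR1 and ETR2 were within 2-fold, ETR1 with 20.4 FPKM against 24.4 in M82 and ETR2 with 29.8 against 25.8. The receptors thus split into members with a low level in the mutant and members near the red fruit's level.

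Downstream of the receptors, EBF1, an F-box gene whose product removes EIN3-like factors, had 189.6 FPKM in M82 and 21.1 in n3122, a difference of -2.996. CTR1, the kinase that holds the pathway off, was within 2-fold at 39.02 and 20.1, and the related kinase gene CTR3 had 26.5 and 23.2. Among the transcription factor genes EIL1, EIL3 and EIL4 were within 2-fold as well, whereas EIL2 was the higher member, with 13.4 FPKM in M82 and 45.8 in n3122 (1.82). In the authors' deposited tables, 8 of the 15 genes were called lower and 1 higher in the same-age comparison, where 11.5% of all tested genes were called lower and 18.1% higher. The same numbers, 8 lower and 1 higher, were called in the younger-red comparison, where the shares over all genes were 7.07% and 7.93%.

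The synthesis genes were split. Of 10 measured genes, 2 were lower and 2 higher, beside 6.62% and 11.4% of all measured genes, with a median of 0.73. With a pseudocount of 0.1 FPKM 5 were higher, since ACO4 (0.99), ACS1A and ACS1B (0.95) lay just under the threshold. ACS4, a synthase of ripening fruit, was at 144 FPKM in n3122 and 122 in M82, after 10.5 in n3122 at 54 DPA, and the oldest fruits were thus within 2-fold of each other. ACS2, the other main synthase of ripening, stood at 97.7 against 310.5 (-1.55), with 21.1 at 54 DPA. For ACO1, the main oxidase, the levels were 737 and 1489 FPKM, within 2-fold only after centring (-0.90), and ACO3 was lower (-1.24). Higher in n3122 were ACO6, with 96.7 FPKM against 14.6, and ACS6, a synthase of unripe fruit, with 38.5 against 12.3. ACS1A lay at the threshold (0.999), with 43.9 FPKM in M82 and 82.1 in n3122. M82 itself had less ACO6 at 54 DPA than at 47 DPA, where the other table listed it at 159 FPKM, above both ages of n3122.

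The best known ripening regulators were below the red fruit's level but well above 0. RIN, a MADS-box regulator of ripening, had 977 FPKM in M82 and 364 in n3122, 40.5% of the red fruit, after 28.3 in n3122 at 54 DPA. NOR, a NAC regulator, had 475 and 281, and at 64.5% it was within 2-fold. CNR, an SBP-box regulator, was lower still, with 269 and 56.8 FPKM (22.97%). AP2A, which restrains ethylene synthesis, had 315 and 109 (37.7%). Of these 4 genes CNR was the lowest relative to red fruit and NOR the closest to it.

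Of all 16 regulators and ethylene-responsive genes, 7 were lower and 1 higher, with a median of -0.82. The shares over all measured genes were 6.62% lower and 11.4% higher. ERF6 and NAC1 were also lower (-1.49 and -1.05). FUL2 and TAGL1, MADS-box genes of fruit, were near the red fruit at 208 and 174 FPKM against 198 and 176, and so was DML2, a DNA demethylase of ripening, at 223 against 209. HB1, a homeobox regulator, had 116 against 98.9. TAG1, a MADS-box gene of flower and fruit, was the higher member, with 73.2 FPKM against 37.3. The authors' deposited tables called 10 of the 16 lower and 1 higher in the same-age comparison, beside 11.5% and 18.1% of all tested genes. In the younger-red comparison 9 were called lower and none higher, beside 7.07% and 7.93%.

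E4 and E8, classic ethylene-responsive genes, differed from each other. E4, which encodes a methionine sulfoxide reductase, stood at 2477 FPKM in M82 and 48.2 in n3122, or 2.12%, close to the 45.6 FPKM of n3122 at 54 DPA. E8, an oxygenase gene, had 4274 and 1112 FPKM (28.3%), after 356 at 54 DPA. The centred difference was -5.54 for E4 and -1.83 for E8. The name E8 is less certain than the others, since the reference table gives the gene at this place another name of the oxidase family.

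**Figure D4:**
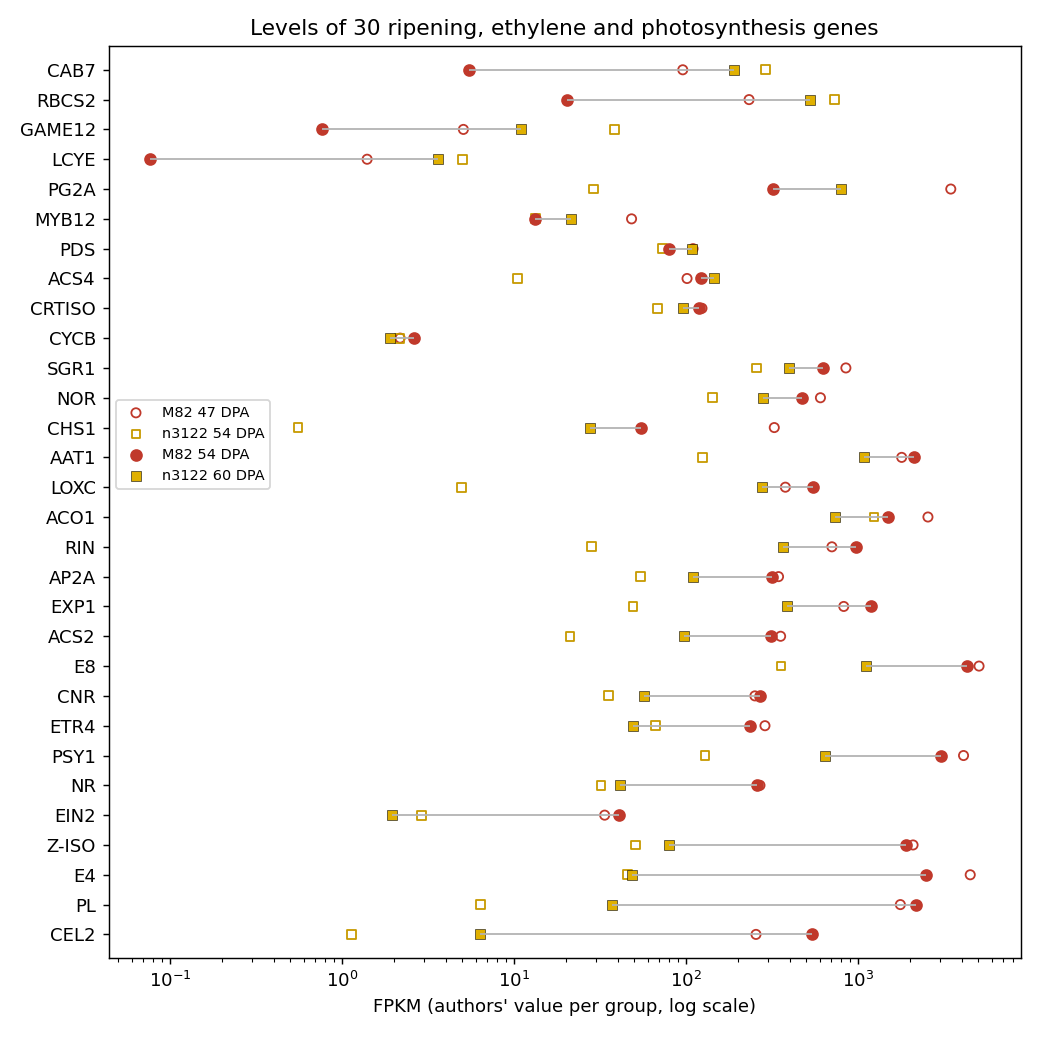
FPKM (log axis) of the 30 genes named whatever their values, in M82 at 54 DPA (filled red circles) and n3122 at 60 DPA (filled yellow squares), with M82 at 47 DPA and n3122 at 54 DPA as open symbols, ordered by the difference between the oldest fruits. Each symbol is the authors' single value per group; 14 of the 30 genes were under 50% of M82 at 54 DPA, 11 between 50% and 200%, and 5 above.

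Of these 30 genes, EIN2, E4, PL, CEL2 and Z-ISO were the 5 under 10% of the red fruit's level. Those above 200% were RBCS2, CAB7, LCYE, GAME12 and PG2A.

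Of the genes that make lycopene, PSY1 and Z-ISO were lower in the oldest yellow fruit and the others were within 2-fold. Up to lycopene 2 of 6 genes were lower and none higher, beside 6.62% and 11.4% of all measured genes, with a median of -0.19. PSY1, phytoene synthase of fruit and first enzyme of the pathway, had 3034 FPKM in M82 and 644 in n3122, 23.1% of the red fruit. Z-ISO, the zeta-carotene isomerase, was far lower, with 1898 and 79.03 FPKM and a difference of -4.46. The other steps were close to the red fruit: PDS, phytoene desaturase, had 79.9 and 108 FPKM, ZDS, zeta-carotene desaturase, 80.8 and 65.4, and CRTISO, carotenoid isomerase, 118 and 95.5. PSY2, the leaf-type phytoene synthase, had 16.3 and 19.4. In the younger-red comparison of the authors' deposited tables, PSY1 was called lower with a q-value of 0.0141 and Z-ISO with 0.000943. The other 4 were not called, and 7.07% of all tested genes were called lower there. In the same-age comparison the authors' deposited table called 4 of the 6 lower, beside 11.5% of all tested genes. These were PSY1 and Z-ISO as well as CRTISO (q-value 0.00243) and ZDS (0.00270).

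Past lycopene, LCYE, the epsilon-cyclase that leads to lutein, had 3.59 FPKM against 0.0764 in M82 (difference 2.21), both low levels. ZEP, zeaxanthin epoxidase, had 48.3 against 17.5 (1.53), and VDE, violaxanthin de-epoxidase, 32.6 against 17.1 (1.01). CRTRB2, a beta-carotene hydroxylase gene, was the 1 lower member of 9, at 16.1 against 40.1 FPKM. CYCB, the chromoplast lycopene beta-cyclase, was within 2-fold at 1.90 and 2.62. So were CRTRB1, another hydroxylase gene, at 38.05 and 62.2, NXS, of neoxanthin synthesis, at 21.8 and 20.4, and the carotene hydroxylase gene CYP97A29, at 18.99 and 10.98. The median over the 9 was 0.44, with 3 higher and 1 lower, beside 11.4% and 6.62% of all measured genes. The authors' deposited tables called 2 of the 9 higher and 1 lower in the same-age comparison, beside 18.1% and 11.5% of all tested genes. In the younger-red comparison 1 was called higher and 1 lower, beside 7.93% and 7.07%. ZEP was called in both comparisons, and LCYE and VDE in neither.

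In the plastid pathway that supplies carotenoid precursors, 1 of 9 measured genes was lower and none higher, with a median of 0.34. The shares over all measured genes were 6.62% lower and 11.4% higher. The lower one was GGPS2, a geranylgeranyl diphosphate synthase, with 42.8 FPKM in M82 and 8.14 in n3122. DXS1, the first enzyme, had 136 and 71.5, and CMK, a kinase of the pathway, 95.8 and 50.6, both within 2-fold. DXR, IDI1 and IDI2 leaned the other way, with differences of 0.94, 0.65 and 0.85.

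Carotenoid cleavage and abscisic acid (ABA) genes were split, with 3 of 6 measured genes higher and 1 lower. The shares over all measured genes were 11.4% and 6.62%. The ABA 8'-hydroxylases, which break ABA down, went opposite ways. CYP707A1 had 17.1 FPKM in n3122 against 2.35, and CYP707A2 9.40 against 58.7. NCED1, whose product makes the ABA precursor, was within 2-fold at 106 and 80.1 FPKM, as was CCD1A, a cleavage dioxygenase gene, at 15.2 and 12.1. CCD1B, a close relative of CCD1A, and NCED2 were just above the threshold (1.13 and 1.03).

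The cell wall genes were the most divided list, with 5 of 12 measured genes higher and 4 lower in n3122. The shares over all measured genes were 11.4% and 6.62%. By the same rule 2 of 12 were higher and 7 lower in the same-age comparison, beside 15.4% and 6.69% of all genes. In the younger-red comparison 2 of 12 were higher and 5 lower, beside 8.92% and 6.78%. The even split was thus particular to the oldest fruits. PL, the pectate lyase of softening, stood at 2166 FPKM in M82 and 36.9 in n3122, or 1.86%. CEL2, an endoglucanase gene, was at 537 and 6.31 FPKM (1.28%). EXP1, the expansin of ripening fruit, had 1182 and 385 (35.5%), and TBG4, a beta-galactosidase gene, 137 and 48.1. PL and CEL2 were thus the lowest of the list relative to red fruit, while EXP1 and TBG4 were between 35.5% and 38.3% of its level.

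PG2A, the fruit polygalacturonase, was higher in the oldest yellow fruit, with 794 FPKM against 320.1 (1.42). MAN4, an endo-mannanase gene, had 1694 against 105 (4.11), the largest difference of the list in the higher direction. In both cases the red fruit of 54 DPA was low beside that of 47 DPA, which the other table listed at 3458 FPKM for PG2A and 1090.4 for MAN4. In the younger-red comparison the authors' deposited table gave a q-value of 0.00595 for PG2A, which was lower in n3122 there, and 0.440 for MAN4, not called. In the same-age comparison n3122 had 28.9 FPKM of PG2A and 106 of MAN4. There the authors' deposited table called PG2A lower (q-value 0.000377) and did not call MAN4 (q-value 0.989). The direction for PG2A thus differed between the oldest fruits and both comparisons that the authors tested. PE1, listed beside PE2 as a pectin methylesterase gene, had 3619 FPKM against 944, PE2 392.2 against 148 and PMEU1 22.1 against 10.4. For PMEU1 the level in n3122 at 54 DPA was 139 FPKM, above both. PE1 and PE2 are neighbouring copies, between which the authors' counting could split reads.

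In the aroma list LOXC and AAT1 were within 2-fold of the red fruit. LOXC, a lipoxygenase gene for volatile compounds, had 275 FPKM in n3122 at 60 DPA and 543 in M82, 55.1% and within 2-fold, after 4.92 in n3122 at 54 DPA. AAT1, an acyltransferase gene of ester synthesis, had 1077 and 2117 FPKM (55.4%), after 125 at 54 DPA. Neither was called in the authors' deposited table of the younger-red comparison, with q-values of 0.451 and 0.350. In the same-age comparison the authors' deposited table called both lower, each with a q-value of 0.000377. Over all measured genes 6.62% were lower and 11.4% higher. Of the 10 measured genes of aroma and sugar metabolism, 4 were lower and none higher. These were LIN6, a cell wall invertase gene (0.429 against 5.91 FPKM), AADC1A, an amino acid decarboxylase gene (3.52 against 17.9), ADH2, alcohol dehydrogenase (1093 against 2770.5), and TIV1, the vacuolar invertase (1188 against 2886). HPL, a hydroperoxide lyase gene, and SUSY, sucrose synthase, were near the red fruit at 32.8 and 10.2 FPKM against 32.8 and 11.8.

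Most flavonoid genes were within 2-fold of the red fruit. Of 9 measured genes, 2 were higher and 1 lower, beside 11.4% and 6.62% of all measured genes, with a median of 0.44. CHS1, a chalcone synthase gene, had 27.6 FPKM in n3122 and 54.8 in M82, after 0.554 in n3122 at 54 DPA. CHS2 had 120.0 and 95.7, and MYB12, a regulator of these genes, 21.4 and 13.3. PAL5, a phenylalanine ammonia-lyase gene, had 5.83 and 6.80. F3primeH, a flavonoid 3'-hydroxylase gene, and CHI, chalcone isomerase, were higher (2.08 and 1.45), and 4CL, a coumarate ligase gene, was lower (-1.55). M82 had far more of several of these transcripts at 47 DPA, with 326 FPKM for CHS1 and 277 for CHS2 in the other table. In the younger-red comparison the authors' deposited table called 5 of the 11 genes lower and none higher, beside 7.07% and 7.93% of all genes. In the same-age comparison it called 3 lower and 1 higher, beside 11.5% and 18.1%.

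Photosynthesis genes stood at higher levels in the oldest yellow fruit. Of the 12 genes measured on the list for chlorophyll and photosynthesis, 11 were higher and none lower, with a median of 2.70. The shares over all measured genes were 11.4% higher and 6.62% lower. RBCS2, a Rubisco small subunit gene, had 529 FPKM in n3122 and 20.3 in M82, and RBCS1 42.6 and 0.527. CAB7, a light-harvesting protein of photosystem I, had 189 and 5.47 (4.99), and CAB8 43.7 and 3.29. CAB4, another light-harvesting gene, had 16.9 and 5.26. PSBP and PSBO, subunits of photosystem II, had 217 and 91.8 in n3122 against 43.96 and 27.9. Rubisco and light-harvesting genes form families of close copies, so a level of 1 member is uncertain.

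Of the 7 genes of this list with at least 1 FPKM in both groups, 6 were higher, so the pattern did not rest on genes near 0 in M82 alone. CAB5, a light-harvesting gene, had 1.81 FPKM in n3122 and was listed at 0 in M82. SGR1, the stay-green gene of chlorophyll breakdown, was the member within 2-fold, at 394 FPKM against 622. In n3122 at 54 DPA SGR1 was at 258 FPKM, below its level at 60 DPA. At that age RBCS2 and CAB7 stood above their levels at 60 DPA, at 733 and 290.0 FPKM. Red fruit held less of both at 54 DPA than at 47 DPA, where M82 was listed at 232 and 95.6 FPKM. The authors' deposited tables called 6 of the 16 higher and 1 lower in the younger-red comparison, beside 7.93% and 7.07% of all tested genes. In the same-age comparison 10 were called higher and 1 lower, beside 18.1% and 11.5%. By the 2-fold rule, 5 of 14 measured genes were higher and 1 lower in the younger-red comparison, with a median of 0.685. Over all genes the shares by this rule were 8.92% and 6.78%.

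Glycoalkaloid genes, whose products include the bitter tomatine of green fruit, were mostly at low levels. Of 6 measured genes, 4 were higher and none lower, beside 11.4% and 6.62% of all measured genes. However, 3 of the 4 were measured through n3122 only. GAME11, a dioxygenase gene, had 28.7 FPKM in n3122 and 3.01 in M82, and GAME12, an aminotransferase gene, 10.98 and 0.762. Both were above these levels in n3122 at 54 DPA, at 41.99 and 38.3 FPKM. GAME4, GAME12 and GAME18 were under 1 FPKM in M82, and of the list only GAME11 and GAME7 had at least 1 FPKM in both groups, with GAME11 higher. In the younger-red comparison 1 of 7 measured genes was higher by at least 1, beside 8.92% of all genes, and the median was 0.33. GAME4 had 2.96 FPKM in n3122 and GAME18 1.32, and GAME7 was within 2-fold at 19.2 and 14.7.

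Genes of the cuticle were listed as markers of the epidermis, another cell layer of this tissue. CD1, which encodes a cutin synthase, had 5.67 FPKM in n3122 and 0.448 in M82. CD2, a regulator of cutin, had 52.4 and 29.2, and CER6, a fatty acid elongation gene, 136 and 114, both within 2-fold. SHN3 was under 1 FPKM in both groups, at 0.722 and 0.492. The summed level of the 4 markers was 145 FPKM in M82 and 195 in n3122. Of these markers 1 was higher, none was lower and none was at 0, and the part of the epidermis in the other differences was not tested. In tissue samples, fewer cells of a type and less RNA per cell cannot be told apart.

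Over all genes above 0 FPKM in both groups and at 50 or more in one, the 8 lowest and 8 highest by centred difference were drawn out, and all but CAB7 are given by identifier only. Solyc12g088220 had been written down for the aroma list, but the reference table has no gene under its symbol, so it was left out of that list. The widest gaps were in the lower direction. Solyc08g066240 had 2242.5 FPKM in M82 and 0.290 in n3122 (difference -10.65), and Solyc01g088400 2402.5 and 2.28 (-9.41). Solyc12g088220 had 1042 and 1.14 FPKM, and Solyc02g065260 736 and 0.305. The other 4 of the 8 lowest, Solyc01g107400, Solyc10g084600, Solyc01g108880 and Solyc03g120570, had 243 to 327 FPKM in M82 and 1.03 to 1.86 in n3122. All 8 were also far below M82 in n3122 at 54 DPA, with levels of 0 to 6.56 FPKM. These transcripts, abundant in the oldest red fruit, were thus close to 0 in the oldest yellow fruit. In the authors' deposited tables Solyc02g065260 was called in neither comparison (q-values 0.0859 at the same age and 0.0820 against younger red fruit). The others of the 8 were called lower in both.

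In the higher direction, Solyc01g091170 had 0.349 FPKM in M82 and 86.4 in n3122 (difference 6.13), and Solyc02g090930 0.924 and 122 (6.11). Both had been higher still in n3122 at 54 DPA, at 531 and 177 FPKM, as had Solyc02g077430, at 352 FPKM before 60.5. Solyc08g023660 and Solyc05g006220 were the other way round, with 26.7 and 18.0 FPKM in n3122 at 54 DPA and 141 and 54.4 at 60 DPA, against 2.22 and 0.579 in M82. Solyc01g110360 and Solyc10g075160 were similar at both ages of n3122, with 86.7 and 93.1 FPKM at 60 DPA. CAB7 was the last of the 8 highest.

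Higher and lower genes lay on all 12 chromosomes. Leaving out the 124 genes whose identifiers place them on none (14.5% higher and 8.1% lower), the share of measured genes that were higher ran from 10.1% on chromosome 1 to 13.6% on chromosome 10, and the share lower from 5.4% on chromosome 7 to 7.7% on chromosome 10. Runs of at least 5 measured genes with neighbouring identifiers, all past the threshold in one direction, were found 7 times, 4 in the lower and 3 in the higher direction. The longest runs held 6 genes each. One on chromosome 5, from Solyc05g005920 to Solyc05g005980, was higher, with 2.15 FPKM in M82 and 30.7 in n3122 for Solyc05g005950. The other, on chromosome 10, from Solyc10g006660 to Solyc10g006710, was lower, with 832 and 373 FPKM for Solyc10g006700.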

How the data were processed

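RNA of pericarp was sequenced in 14 libraries, 2 in each of 7 groups. The tools were CASAVA, Cufflinks and TopHat2 (version 2.0), per the submitters' processing notes. No source used here names the genome build or annotation. The authors deposited 4 tables of 34725 genes, with 1 FPKM value per gene and group and, per the file headers, a p-value and a q-value for each of their comparisons. Each p-value and q-value was taken as the authors deposited it. A fold change on the log2 scale and a test score, which the authors also deposited, were not used.

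FPKM values of M82 at 54 DPA and n3122 at 60 DPA were joined by gene identifier without its version. The centred difference and its threshold of 1 are as given above, with a pseudocount of 1 FPKM, which understates differences of low genes. A call in the authors' tables is a q-value at or under 0.05. Scripts used Python 3.11.15, pandas 2.3.3 and numpy 2.4.6, and were tested on simulated data. The sequencing depth is unknown, so no interval from counting is given, and without replicate values no test was made.

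Identifiers were paired with symbols from general knowledge and kept where the reference table (RefSeq names, assembly SLM_r2.1) has that symbol, a synonym or another name on the same chromosome within 5% of the same relative place. Of 169 pairs, 142 passed: 113 by symbol, 18 by synonym and 11 by another name; 5 lay elsewhere, 21 had no such symbol and 1 was not in the tables. The check cannot tell a gene from close neighbours. Of the listed genes, 1 is not reported here. Genes named were 30 taken whatever their values, the 3 highest and 3 lowest of each list with at least 5 FPKM in a group, and the 8 highest and 8 lowest of all; other listed genes were added after their values were seen. The comparison, the members and the lists were chosen with earlier results of these data known. Alternatives changed the pseudocount, the filter, the centring, the scaling and the thresholds.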

Additional observations from a re-analysis of the deposited data

How the results depend on the processing

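No paired analysis was possible because the authors gave 1 value per group, so neither a replicate block nor leaving out a replicate could be run. Without centring the median of the cell wall list was -0.03 instead of 0.08, and that of all genes -0.10 instead of 0.01; the latter was also below 0 with total scaling (-0.01) and with a filter at 5 FPKM (-0.02). No other list's median changed sign under the alternatives for which list medians were taken. These were no centring, total scaling, a pseudocount of 0.1 FPKM, no filter on low values and leaving out genes listed at 0. List medians were not taken with a pseudocount of 5 FPKM, a filter at 5 FPKM or centring on more abundant genes. With a pseudocount of 0.1 FPKM the median difference was 3.84 for photosynthesis and 3.44 for glycoalkaloids, against 2.70 and 1.65. With a pseudocount of 5 FPKM 954 genes were higher and 726 lower, and with a minimum difference of 2 the counts were 552 and 378, against 2106 and 1219. With no filter on low values the medians were 1.71 for photosynthesis, 1.07 for glycoalkaloids, 0.65 for the cuticle, 0.35 for ethylene synthesis and 0.10 for flavonoids. Leaving out genes listed at 0, an alternative added after the data were seen, gave 3.02 for photosynthesis. With the limit on the q-value in the authors' deposited tables at 0.01, the same-age comparison had 1391 lower genes instead of 2165, and the younger-red comparison had 833 higher and 787 lower instead of 1493 and 1331. Without centring 1801 genes were higher and 1462 lower. Lower members were then 3 instead of 2 for ethylene synthesis, 8 instead of 7 for regulators and 5 instead of 4 for the cell wall. Higher members were 2 instead of 3 for xanthophylls and for cleavage and ABA, and none instead of 1 for regulators. Depth and replicate spread are unknown, so levels near 1 FPKM are the least certain, and 13 listed genes had a difference between 0.9 and 1.1 in size.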

Other observations

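In the run of 5 lower genes on chromosome 2, from Solyc02g072320 to Solyc02g072400, 3 were listed at 0 in n3122 at 60 DPA. These had 14.9 (Solyc02g072340), 14.6 (Solyc02g072350) and 51.6 FPKM (Solyc02g072370) in M82 at 54 DPA, and the first and last were also listed at 0 in n3122 at 54 DPA. Over all ages, 2 genes had at least 1 FPKM in every M82 group and under 0.1 in every n3122 group, and 5 genes had the reverse. The 5 include Solyc10g021280 and Solyc10g047690, at 48285.7 and 7729.76 FPKM in n3122 at 60 DPA and listed at 0 in M82. The level of Solyc10g047690 is exactly that of Solyc08g082930, so these listings are as uncertain as those of other very abundant genes. All of these genes were noticed after their values were seen.

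Of the 100 with the highest level in M82, 37 were lower and 9 higher in n3122, and of the 100 with the highest level in n3122, 40 were higher and 10 lower, a direction that choosing by one group favours.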
